A study of Mus musculus with 2 samples.

Results

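Mir126a and Mir126b are 2 microRNA genes that lie on opposite strands of the same stretch of mouse chromosome 2, inside the gene Egfl7. They are the 2 members described here, of 2202 miRNA genes counted in each library, and were chosen by the symbols that GENCODE M21 gives to the gene identifiers of the count tables. The samples, labelled as a layer of hippocampus, came from male B6CASTF1/J mice, a hybrid strain that carries 1 C57BL/6J and 1 CAST/EiJ genome, taken at an age of 2 months. Both samples form 1 group, biological replicates 1 and 2, and the labels name no treatment, so no conditions were compared. The labels name separate biosamples and a single donor entry, so SDs measure only the spread between these 2 libraries, which may be technical. The p-values measure counting error alone and take no account of that spread. RNA was taken from tissue and not from sorted cells, and in such bulk RNA fewer cells of a type and less RNA per cell cannot be told apart.

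A microRNA is cut from a folded hairpin into a short mature strand, which guides silencing complexes to messenger RNAs, largely through its seed, the bases near its 5′ end. Egfl7 encodes a protein that endothelial cells secrete into the vessel matrix, and miR-126, made from within that gene, is the best known endothelial microRNA. It maintains vessel integrity and strengthens the response to the growth factor VEGF by repressing Spred1 and Pik3r2, inhibitors of the signal. Mir126b is annotated on the other strand of the same hairpin, where RNA would have to be transcribed against the direction of Egfl7.

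Mir126a (ENSMUSG00000065540.1) occupies chr2:26591357-26591429 on the plus strand of mm10, which is 73 bases, and Mir126b (ENSMUSG00000105799.1) occupies chr2:26591363-26591420 on the minus strand, which is 58 bases. Egfl7 (ENSMUSG00000026921.18) spans chr2:26580014-26593120 on the plus strand, so Mir126a runs with its host and Mir126b against it. Of 19 annotated Egfl7 transcripts 9 span the hairpin. It is intronic in 8 of these, including all 7 protein-coding ones, and exonic in 1, the retained-intron transcript Egfl7-206. In 6 transcripts the intron is the same, 600 bases long, with 293 bases before Mir126a and 234 bases after it. The nearest other miRNA genes are far away: Mir6996 lies 121 kb before it, with 1 and 2 counts in replicates 1 and 2, and Gm24049 lies 810 kb after it, with 0 counts in both. Neither was detected.

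The sequences are shown because they set out how closely the 2 genes resemble each other and why strand had to be resolved. They are RefSeq sequences of GRCm38.p6, the assembly also called mm10, written 5′ to 3′ on each gene's own strand, and both members matched the table. In the hairpins the capitals mark the mature products that the table holds:
Mir126a hairpin: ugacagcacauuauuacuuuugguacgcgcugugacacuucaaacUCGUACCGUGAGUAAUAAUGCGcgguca
Mir126b hairpin: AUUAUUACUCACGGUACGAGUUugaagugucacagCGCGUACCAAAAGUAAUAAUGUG
In the mature products the capitals mark the seed, bases 2 to 8:
miR-126a-3p: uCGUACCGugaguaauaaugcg
miR-126b-5p: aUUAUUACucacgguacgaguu
miR-126b-3p: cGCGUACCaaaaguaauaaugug

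The reverse complement of the whole Mir126b hairpin is found at bases 7 to 64 of the Mir126a hairpin. miR-126b-5p lies opposite miR-126a-3p, and 19 bases of miR-126a-3p are the exact complement of it. miR-126b-3p, from the other arm, resembles miR-126a-3p itself. In their best ungapped alignment 17 of 22 aligned bases are identical, with a longest shared run of 10 bases. A hairpin pairs with itself, so its opposite strand folds into a similar hairpin, and here both predicted folds paired most bases, 54 of 73 in Mir126a at -31.2 kcal/mol and 42 of 58 in Mir126b at -19.3 kcal/mol. The seeds are nevertheless distinct. The first 8 bases of miR-126a-3p and miR-126b-3p share the 6 bases CGUACC, but shifted by position, so the seeds of the 3 mature products all differ. None of the 3 seeds is the seed of any other of the 1679 mature products in the table, and CGUACC itself is held by these 2 of the 1679 alone. The product of the other arm of Mir126a, miR-126a-5p, is not among those compared. Neither gene shared a run of 20 bases on the same strand with another miRNA gene, as 1084 of the 2202 genes did, and the longest run Mir126a shared with any of them was 11 bases. Matches elsewhere in the genome were not tested.

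**Figure D1:**
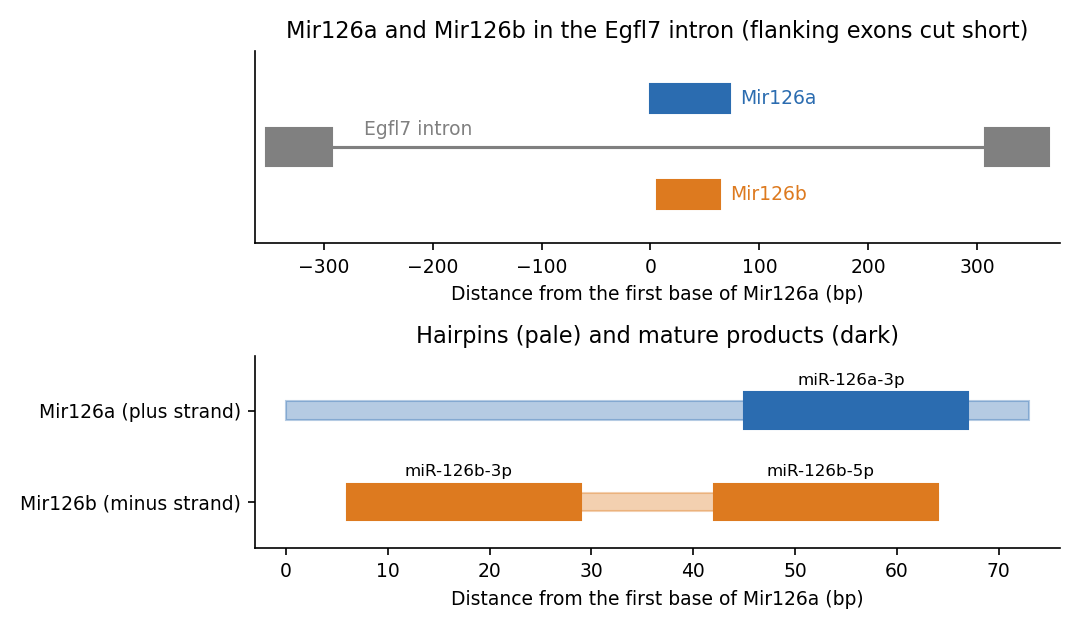
Position of the Mir126 genes on chromosome 2, as distance in bp from the first base of Mir126a. The upper panel shows both genes in the 600-base Egfl7 intron with the flanking exons in grey, and the lower panel shows the hairpins in pale colour and the mature products of the RefSeq table in dark, where all 58 bases of Mir126b lie within the 73 bases of Mir126a.

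The libraries held 6441333 reads in replicate 1 and 10003856 in replicate 2, of which 2322520 and 3414105 were counted on miRNA genes. Reads that named no gene made up 63.9% and 65.9%, of which multimapping reads were the largest class at 42.6% and 46.0% of each library. Counts are per gene, so the products of the arms of the Mir126a hairpin are summed, and they do not tell the C57BL/6J allele from the CAST/EiJ allele.

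Among reads placed on a single gene, Mir126a was one of the most abundant miRNA genes of the tissue and Mir126b was not detected. Multimapping reads are assigned to no gene in these tables, so the order of genes leaves them out, and Mir124a-1, whose product is made at several loci, had 6 and 11 counts. Each table gives counts for the strand of the gene, for the opposite strand and for both strands together. On its own strand Mir126a had 34579 counts in replicate 1 and 42588 counts in replicate 2. Mir126b had 0 counts on its own strand in both. Mir126a was therefore high and Mir126b at 0 in each library, with no overlap. Scaled to a sum of 1000000 over all miRNA genes of the library (CPM), Mir126a stood at 14889 CPM in replicate 1 (Wilson 95% interval 14734 to 15045) and 12474 CPM in replicate 2 (12357 to 12592). The mean was 13681 ± 1707 CPM (SD, n = 2), or 1.37% ± 0.171 (SD, n = 2) of miRNA-gene counts. Scaled to 1000000 reads of any kind, the same counts gave 5368 in replicate 1 and 4257 in replicate 2.

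Zero counts of Mir126b allow up to 3 counts, equal to 1.29 CPM in the first library and 0.879 CPM in the second. Against that floor of 3 counts per library, Mir126b was at least 11526-fold lower than Mir126a in replicate 1 and at least 14196-fold lower in replicate 2. Expressed as a share, the floor is 0.00868% of the counts of Mir126a in replicate 1 and 0.00704% in replicate 2. These intervals and floors reflect counting error alone, because PCR copies without molecular identifiers are not separate molecules.

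The opposite-strand column mirrored this. The Mir126b interval had 34579 opposite-strand counts in replicate 1 and 42583 in replicate 2, which are the reads of Mir126a seen from the minus-strand gene. In replicate 1 that is every read of Mir126a. In replicate 2 it leaves 5 reads that were counted on Mir126a and not on the Mir126b interval, which is 15 bases shorter. Mir126a in turn had 0 opposite-strand counts in both libraries. Outside overlapping genes, opposite-strand reads were also rare in these libraries, at 89 counts in replicate 1 and 114 counts in replicate 2. As shares of these reads plus all same-strand counts, overlapping genes included, they were 0.00383% and 0.00334%. At those shares the reads of Mir126a would give 1.3 and 1.4 opposite-strand counts, which lie within the floor of 3 counts. A level of Mir126b under that floor was not detectable at this depth.

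In the column that ignores strand, the locus almost vanished. Mir126a had 0 counts there in replicate 1 and 5 counts in replicate 2, which is 0.0117% of its same-strand counts. Mir126b had 0 in both. The 5 counts equal the 5 reads outside the Mir126b interval. The remaining 34579 and 42583 reads overlapped both genes, and the tables place such reads in a row of ambiguous reads that belongs to no gene. The locus alone made up 20.3% of all ambiguous reads of replicate 1 and 16.8% of those of replicate 2. Mir126a thus went from rank 11 and 15 by same-strand counts to rank 597 and 423 without strand. The rank of 597, in replicate 1, is a tie with every other gene at 0 counts.

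**Figure D2:**
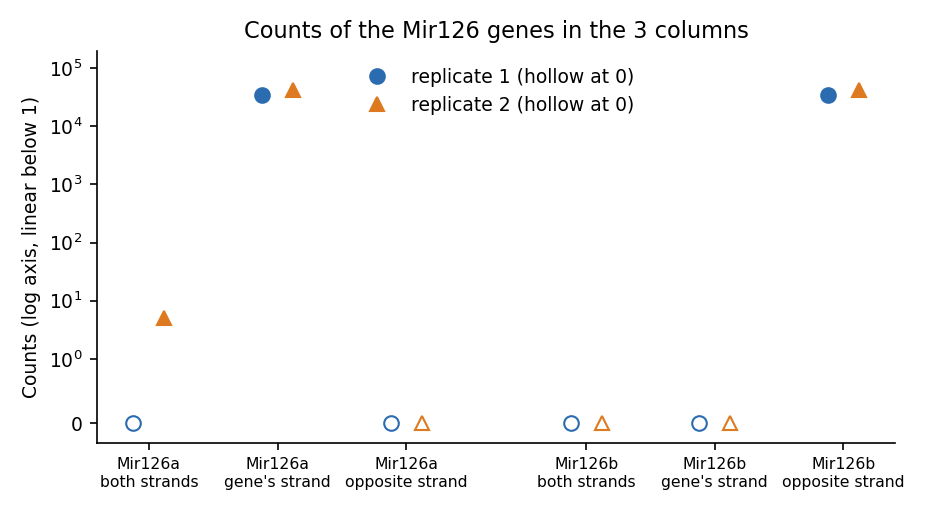
Counts of Mir126a and Mir126b for both strands together, for the gene's strand and for the opposite strand, on an axis that is logarithmic above 1 and linear below, with replicate 1 as circles and replicate 2 as triangles. Filled points at 34579 and above appear only for Mir126a on its own strand and for Mir126b on the opposite strand.

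Among the 2202 genes, 32 pairs overlapped on opposite strands, involving 64 genes. Reads lost from these 32 pairs summed to 170529 in replicate 1 and 253343 in replicate 2, which is every ambiguous read of the unstranded column. By mean CPM the Mir126 pair was the second of them, although Mir191 was ahead of it in replicate 2. Mirlet7e and its partner Gm25927 came first, with 64214 and 94311 counts of Mirlet7e and 37.7% and 37.2% of ambiguous reads. Mir191 and its partner Gm24083 came next by mean CPM, with 26673 and 49451 counts of Mir191 and 15.6% and 19.5%. In 26 pairs at least 1 gene was detected, meaning 2 CPM or more in both libraries. The lower gene had 0 counts in both libraries in 16 of those 26 pairs, Mir126b included. Among the 12 pairs whose higher gene had a mean of 1000 CPM or more the count was 9. The other 3 were Gm24083 with 0 and 1 counts, Mir3065 opposite Mir338 with 4 and 5 counts, and Mir3544 opposite Mir337 with 1 and 0 counts. The higher genes of those 9 pairs were Mirlet7e, Mir126a, Mir378a, Mir30e, Mir219a-2, Mir409, Mir451a, Mir376a and Mir497. The largest share of a lower gene in both libraries was at Mir24-1, a gene of the Mir23b cluster with 53 and 108 counts, opposite Mir3074-1 with 15 and 27 counts, or 22.1% and 20% of the counts of the pair. Mir3074-1 was the single lower gene of a pair to be detected. Its share is one of singly placed reads, and Mir23b of the same cluster had 48630 and 84146 counts. How many reads of Mir24-1 were lost as multimapping was not tested. A lower gene at 0 in both libraries was therefore the commonest outcome among the 26 pairs, and the Mir126 pair shared it. Of all 2202 genes, however, 715 had a count in either library, so most miRNA genes were at 0 in both. The lower gene was also picked by these same counts, so its 0 is not shown to be particular to opposite-strand partners.

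**Figure D3:**
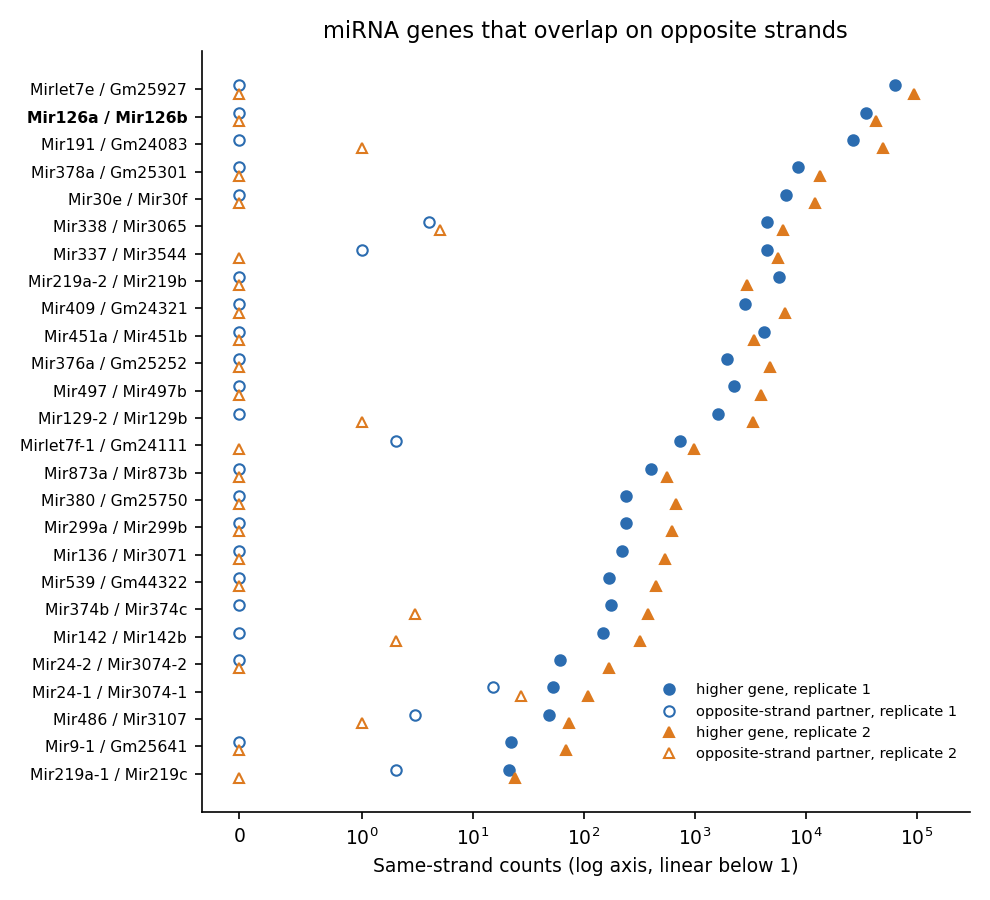
Same-strand counts, on an axis that is logarithmic above 1 and linear below, of both genes of the 26 opposite-strand pairs with a detected gene, ordered by level, with filled points for the higher gene and hollow points for its partner in replicate 1 (circles) and replicate 2 (triangles). Mir126b, in bold with Mir126a, is at 0 in both libraries, as are 15 other partners.

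By mean level of these singly placed reads Mir126a was the 12th of the 2202 genes, rank 11 in replicate 1 and rank 15 in replicate 2. Its mean was 157 times the median of 87.0 CPM over the 401 detected genes. Directly above it came Mir151, an intronic miRNA gene of Ptk2, with 14640 and 12961 CPM in replicates 1 and 2. Mir126a was above Mir151 in replicate 1 and below it in replicate 2. Directly below came Mir191 with 11485 and 14484 CPM, whose order to Mir126a was also reversed between the libraries. The ranges of Mir126a and both of these neighbours overlapped, so the 2 libraries give no stable order among them. Mir132, an activity-regulated neuronal gene, lay next in order with 11112 and 10719 CPM, below Mir126a in both libraries. Mir128-1, a neuronal gene with 4518 and 16906 CPM, spanned the whole range of Mir126a. Mir23b, with 20938 and 24647 CPM, and Mirlet7e, with 27648 and 27624 CPM, lay above it in both libraries without overlap. Over all detected genes, 10 had a range wholly above that of Mir126a, 386 wholly below, and 4 overlapped it, namely Mir151, Mir191, Mir128-1 and Mir26b.

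The gene most like Mir126a over the 2 libraries was Mir151, at a distance of 0.06 in log2(CPM + 1), followed by Mir191 at 0.432, Mir132 at 0.475, Mir328 at 0.547 and Mir29a at 0.678. With 2 libraries of 1 group, this measure compares levels.

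**Figure D4:**
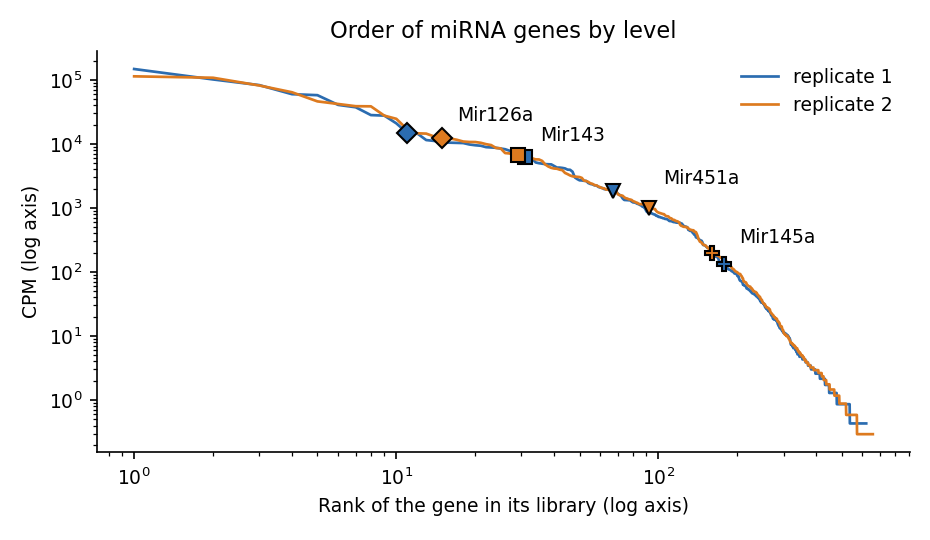
CPM of each miRNA gene against its rank within its library, both on log axes, in replicate 1 (blue) and replicate 2 (orange), with Mir126a (diamonds), Mir143 (squares), Mir451a (triangles) and Mir145a (crosses) marked. Mir126a sits at ranks 11 and 15, ahead of Mir143 at ranks 31 and 29.

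Mir143, Mir145a and Mir451a, genes of vessel walls and blood, were each lower than Mir126a in both libraries. Mir143, typical of the pericytes and smooth muscle cells that wrap vessels, had 6325 and 6736 CPM in replicates 1 and 2. Mir126a exceeded it 2.35-fold and 1.85-fold, a mean of 2.1 ± 0.355 (SD, n = 2). Mir145a, made from the same cluster as Mir143, had 131 and 199 CPM, and Mir126a exceeded it 113-fold and 62.8-fold. Mir451a, the erythrocyte gene, had 1807 and 1007 CPM, and Mir126a exceeded it 8.24-fold and 12.4-fold, a mean of 10.3 ± 2.93 (SD, n = 2). No p is given for these ratios, which rest on 2 libraries of 1 group. Levels of different miRNA genes also carry differences in how well each product is ligated and sequenced, which were not tested.

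The part that other cells have in the level of Mir126a was not tested. All 3 erythrocyte genes were detected, with a summed level of 1922 CPM in replicate 1 and 1149 CPM in replicate 2. Among them Mir451a alone was lower in replicate 2, at a ratio of 0.548, beside 1.25 for Mir144 and 1.01 for Mir486. Of 5 microglia and leukocyte genes 4 were detected, with sums of 1260 and 1598 CPM, and the myeloid gene Mir223 had 1 and 27 counts. Of 3 mural genes 2 were detected, with sums of 6456 and 6935 CPM, and Mir145b was at 0. All 3 oligodendrocyte genes were detected, and their sum, at 4367 and 2683 CPM, was lower in replicate 2, as that of the erythrocyte genes and the level of Mir126a were. Of these, Mir219a-2 had a ratio of replicate 2 over replicate 1 of 0.347 and Mir338 one of 0.931, both past the exact binomial test between the libraries. Of 2 choroid plexus genes Mir204 was detected, and the sums were 593 and 739 CPM. The sum of the 9 neuron genes was 32939 and 47570 CPM, with 7 detected. These did not differ in 1 direction: Mir128-1, Mir128-2 and Mir137 were higher in replicate 2, at ratios of 3.68, 2.68 and 1.38, and Mir138-1, Mir138-2 and Mir132 were lower, at 0.538, 0.769 and 0.948, all past the same test. Mir124a-2 and Mir124a-3, whose product is made at several loci, had 5 counts or fewer in each library. All these sums and ratios rest on singly placed reads, also for Mir128, Mir138 and Mir219a, which have several genes each. Of the 2 endothelial markers Mir126b was at 0, so the endothelial sum rested on Mir126a alone.

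Between the libraries Mir126a was lower in replicate 2, with a log2 ratio of -0.28 after TMM scaling, which is a ratio of 0.823 (exact 95% interval 0.812 to 0.835, counting error only). The difference passed the exact binomial test (adjusted p = 1.59e-156, Benjamini-Hochberg over 401 detected genes). It compares 2 libraries and no conditions, and 50.9% of all detected genes passed it, 28.2% as higher and 22.7% as lower in replicate 2. The share of 50.9% is not matched to the level of Mir126a. When the filter was raised to 10 CPM, 65.9% of the 299 genes left passed. In the main setting every gene with a higher mean than Mir126a passed too. The split into higher and lower depended on the scaling. It was 113 and 91 after TMM, and 101 and 97 with DESeq2 size factors. With the 5 most abundant genes left out of the totals it was 91 and 108. The difference of Mir126a, 1.21-fold, was below the median difference of 1.26-fold, and 225 of the 401 detected genes (56.1%) differed more. Mir126b could not be tested, having no counts. Mir143 was close to level between the libraries, at a ratio of 1.05 (adjusted exact binomial p = 4.6e-05), which became 0.999 (adjusted p = 0.997) when the 5 most abundant genes were left out of the totals. Mir145a was higher in replicate 2, at 1.48 (adjusted exact binomial p = 1.83e-08). Mir451a differed in the same direction as Mir126a, at 0.548 (adjusted exact binomial p = 1.04e-150). Mir126a and Mir451a were thus lower in replicate 2 and Mir145a higher, under each of the 4 scalings tried, which describes these 2 libraries. Of the other erythrocyte genes Mir144 had a ratio of 1.25 (adjusted exact binomial p = 0.014, and 0.061 without the 5 most abundant genes in the totals) and Mir486 one of 1.01 (adjusted p = 1).

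**Figure D5:**
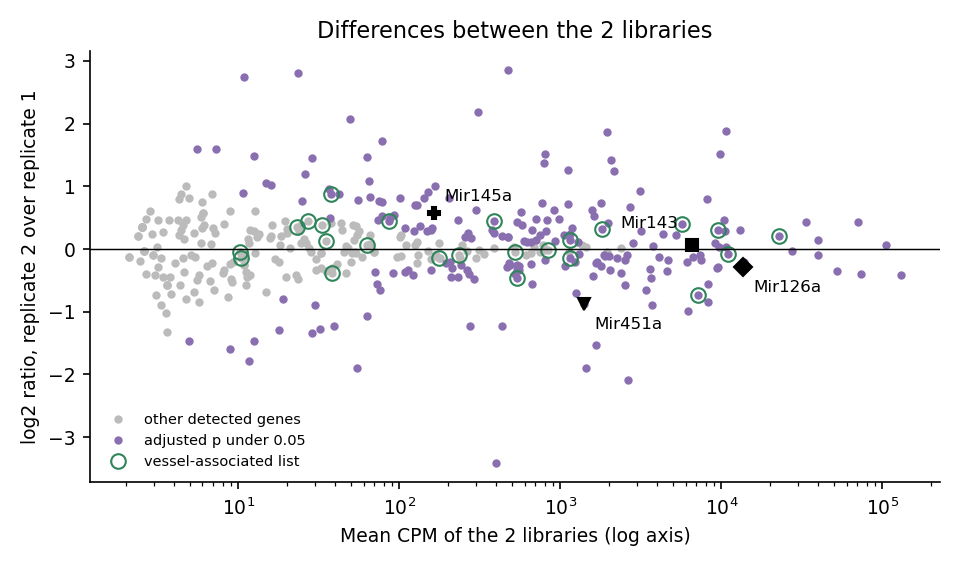
Log2 ratio of replicate 2 over replicate 1 against mean CPM (log axis) for the 401 detected miRNA genes, coloured purple where the exact binomial test passed and grey otherwise, and the vessel-associated list ringed in green. Mir126a, at -0.28, lies within the cloud of abundant genes.

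A list of 27 other miRNA genes known for roles in endothelium or vessel growth was compared with Mir126a. Of these 24 were detected, and Mir23b alone had a mean above that of Mir126a. Mir23b and Mir23a, of paralogous clusters with Mir27 and Mir24 genes, had means of 22793 ± 2622 and 9587 ± 1570 CPM (SD, n = 2). Mir132, which is both neuronal and known to act in activated endothelium, was at 10916 ± 278 CPM. Mir221, known to act on Kit in endothelial cells, was at 7162 ± 2454 CPM, with 8897 and 5426 CPM in replicates 1 and 2. The lowest detected member was Mir503 at 10.3 ± 0.058 CPM. Mir10b, with 10 and 5 counts, Mir19a, with 0 and 3 counts, and Mir19b-1, with 0 and 1 counts, were not detected. The detected members had a median level of 310 CPM, beside 87.0 CPM over all detected genes. Many of these genes are known from neurons and glia too, so their levels are not endothelial levels.

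Between the libraries, members of this list differed in both directions. Of its 24 detected members 12 passed the exact binomial test (50.0%, beside 50.9% of all detected genes), 8 higher and 4 lower in replicate 2. These shares are not matched for level, as the list had the higher median, 310 CPM beside 87.0 CPM. Among the 299 genes at 10 CPM or more in both libraries, 65.9% passed. With the 5 most abundant genes left out of the totals, 7 members of the list were higher and 5 lower, beside 91 and 108 of all detected genes. The median log2 ratio of the list was then 0.02, beside -0.04. After TMM scaling that median was 0.09, beside 0.03 over all detected genes, while the log2 ratio of Mir126a was -0.28. The 4 lower members were Mir132 at a ratio of 0.948, Mir221 at 0.599, Mir27b at 0.91 and Mir17 at 0.726.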

How the data were processed

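Small RNA libraries, of fragments under 30 nt per the labels, were made from 2 hippocampus samples. The deposited counts are raw whole numbers per miRNA gene, 1 table per library with 3 columns (both strands, the gene's strand, the opposite strand). The labels give mm10 and the deposited description files GENCODE M21. The aligner and counter are not given in the sources used here. The 4 rows that name no gene, 63.9% and 65.9% of reads, stayed out of library sizes and tests. Symbols and coordinates came from GENCODE M21, and all 2202 identifiers matched.

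CPM were computed from the same-strand column. Genes at 2 CPM or more in both libraries were called detected. The libraries were compared by a two-sided exact binomial test (scipy 1.17.1) with TMM factors of 0.991 and 1.01 (edgeR 4.0.16, R 4.3.3), Benjamini-Hochberg adjustment over the detected genes and a threshold of 0.05. Ratios used 0.5 added to each count. The test was run on simulated counts that held counting error alone, as the test assumes, so that check cannot speak to spread between libraries. Folds were predicted with RNAfold 2.7.2. Alternatives were other library sizes, DESeq2 1.42.0 size factors, other filters, the other strand columns and single replicates.

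Named were the members, the 5 detected genes nearest to Mir126a in log2(CPM + 1), the 3 above and 3 below it, opposite-strand pairs at 1000 CPM or more, Mir143, Mir145a, Mir451a, the leading 4 and the lowest detected gene of the vessel list, the host and the nearest miRNA genes. Others were named after their values were seen. Members and lists were chosen with earlier results of these data known.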

Additional observations from a re-analysis of the deposited data

How the results depend on the processing

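Mir126a was lower in replicate 2 and past the exact binomial threshold under all 5 alternatives that gave a value, with log2 ratios from -0.35 to -0.26 and adjusted p from 1.48e-238 to 5.73e-130. All 5 used the same counts of Mir126a, and changing the filter left the log2 ratio at -0.28, so their agreement adds no independent evidence. The unstranded column gave no ratio for Mir126a, since its counts there were 0 and 5, and Mir126b gave none under any setting. The level of Mir126a depended on the total used, at 4813 when scaled to 1000000 reads of any kind and 24156 CPM when the 5 most abundant genes were left out of the total, beside 13681 CPM. TMM and DESeq2 size factors gave 13692 and 13708 CPM. With the unstranded column it was 0.791 CPM, and its ratio to Mir143 was 0.000109. Its mean rank there was 510 in place of 13, which takes in the tied rank at 0 counts in replicate 1. In the opposite-strand column Mir126a was 0 CPM, while Mir126b was 185339 CPM of that column's small total. No ratio to Mir451a could be formed without strand, because Mir451a had 0 counts there. Left with a single library, Mir126a ranged from 12474 to 14889 CPM and its rank from 11 to 15. Its ratio then ranged from 1.85 to 2.35 over Mir143 and from 8.24 to 12.4 over Mir451a. Its mean rank was 11.5 without genes that share 20 bases with another. The count of differing genes was 204 of 401 tested, and 184 to 210 under the 5 alternatives. The number tested changed with filter and column, so the share that passed varied more than the count. It was 50.9% in the main setting, 29.4% of 715 genes without a filter and 65.9% of 299 with the 10 CPM filter. In the unstranded column it was 48.9% of 376 genes. Library totals and DESeq2 size factors gave 51.1% and 49.4% of the 401. The scalings of Mir143, Mir145a, Mir451a, Mir144 and the vessel list were chosen after seeing the data. No paired analysis was possible because there is a single group.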
